A study of Mus musculus with 9 samples.

Results

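Clone 1 of AML246, a mouse acute myeloid leukaemia line, was compared with clones 2 and 4 of the same line. Its 3 RNA-seq libraries (untreated, Dox and Wash) were chosen by the clone number in the sample titles and set against the 6 libraries of the other clones, out of 9 in all. AML246 cells are p53-/-, of the C57BL/6 strain, carry a hairpin RNA (shRNA) against PU.1 and were grown with IL3, and every library, controls included, shares that background. Each clone was grown from a single sorted cell, so clone 1 is 1 clone and each condition of it is 1 library. The untreated libraries came from GFPhigh sorted cells. The Dox libraries came from cells given doxycycline for 14 days and sorted as GFPoff, and the Wash libraries from cells given doxycycline for 14 days, kept without it for another 14 days and sorted again as GFPhigh. Doxycycline, the GFP gate and the hairpin changed together in this design, so their parts cannot be told apart.

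PU.1, the product of Spi1, is the transcription factor that drives granulocyte and monocyte maturation, and its loss holds myeloid precursors in an immature state. In such a line, doxycycline switches the hairpin off and lets PU.1 come back, and removal of the drug switches the hairpin on again. Early myeloid precursors are known for primary (azurophilic) granules, which they fill with myeloperoxidase and serine proteases before they mature. Clones of one leukaemia line share an ancestor and can still differ in heritable ways, and comparing them in 3 conditions separates what a clone keeps from what 1 library shows.

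Differences held in all conditions were counted apart from those of the Wash library, and a gene could enter both counts. Held differences were genes called between clone 1 and the other clones and lying above both clones, or below both clones, in untreated, Dox and Wash alike. Wash-alone differences were genes for which the Wash library of clone 1 departed from what its own untreated and Dox libraries and the other clones' Wash libraries gave, and which were not called over untreated and Dox. Levels are CPM, library-size-scaled read counts, adjusted by edgeR's TMM factors, and sets of 3 values are always in the order untreated, Dox, Wash. Calls are at a Benjamini-Hochberg adjusted p of 0.05 over 12004 genes in edgeR's quasi-likelihood test. The test was run without and with a replicate block, the blocked test giving each of the 3 clones its own mean. Differences, Wash terms and adjusted p-values for single genes are on the log2 scale and from the blocked test unless stated otherwise.

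Spi1, the target of the hairpin, was at 48.1, 197 and 52 CPM in clone 1, at 46.6, 191 and 40.6 in clone 2 and at 23.7, 156 and 23.9 in clone 4. It was high in the Dox library of every clone and back at a low level in every Wash library, clone 1 included. Its difference between clone 1 and the others was not called (log2 difference 0.44, SE 0.24, adjusted p = 0.271 without the block). Ptprc, the pan-leukocyte surface protein CD45, was at 2.02, 42.2 and 0.644 CPM in clone 1, at 1.64, 45.1 and 0.735 in clone 2 and at 0.988, 28 and 0.489 in clone 4, so this defining blood marker was close to absent with the hairpin on in all 3 clones. Laptm5, a lysosomal protein of blood cells, was at 634 CPM or more in each library, and all 22 genes of a blood and AML list passed the count filter. Expression in the Dox libraries alone was enough to pass this filter, as with Ptprc, so passing does not show expression in untreated or Wash. Of 29 B, T and NK cell markers 5 passed it, with a summed level of 166 to 220 CPM in clone 1 and 184 to 360 CPM in the others. Of 17 stromal, epithelial and endothelial markers 6 passed it, at 898 to 1075 CPM in clone 1 and 935 to 1059 CPM in the others.

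Libraries of clone 1 stood apart before any gene was tested. Total counts ran from 7408118 (clone 1 untreated) to 9803258 (clone 1 Dox). One entry without a symbol took 22% of the counts of the clone 1 untreated library and 0.153% to 1.64% of the other 8, and that library's TMM factor was 0.7365 against 0.916 to 1.177 elsewhere. Genes of the mitochondrial genome took 12.7% of untreated, 2.66% of Dox and 3.28% of Wash counts in clone 1. In clone 2 their shares were 16.8%, 18.6% and 15.8%, and in clone 4 they were 20.4%, 7.52% and 22%. The mitochondrial share was thus low in both the Dox and the Wash library of clone 1, and its part in the results of those libraries was not tested.

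Clone 1 was closest to the other clones when untreated and farthest from them after washout. Against the mean of clones 2 and 4, 4.11% of genes lay at least 2-fold away in untreated, 11.2% in Dox and 27.2% in Wash. By pairs, clone 1 differed as much from clone 2 in 5.34%, 19.6% and 34.7% of genes and from clone 4 in 6.32%, 8.24% and 22.7%. Clones 2 and 4 differed as much from each other in 7.51%, 11.3% and 9.48%. By this count the untreated clone 1 was no farther from either clone than those were from each other, and its Wash library was farther from both. The clone 1 Wash library was the highest of all 9 for 2892 genes (24.1%) and the lowest of all 9 for 2772 genes (23.1%). In the other 8 libraries the share of genes at either extreme ran from 8.82% to 37.9%. Across genes, the offset of clone 1 in Wash correlated at r = 0.664 with its offset in Dox and at r = 0.337 with its offset in untreated (12004 genes, described without a test since each pair shares a clone and its normalization).

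Few genes passed the test without the block, and many more passed it with the block. Clone 1 lay above both clones in all 3 conditions for 1591 genes (13.3% of those tested) and below both for 1411 genes (11.8%). Without the block, 1 gene was called higher (0.00833% of those tested) and 4 lower (0.0333%), all 5 of them held, and 3069 genes had an unadjusted p under 0.05. That count of 5 was 0 when clone 2, clone 4, the Dox or Wash library of clone 1, the Dox library of clone 2, or the Dox or Wash library of clone 4 was left out, and 965 when the untreated one of clone 1 was dropped. With the block, 263 genes were higher (2.19%) and 154 lower (1.28%), and 398 of these 417 were held, 251 higher and 147 lower. Among the held genes the median log2 difference was 1.00 for the higher and -1.69 for the lower. Their adjusted p lay between 0.0265 and 0.04996 with the block and between 0.0256 and 0.299 without it. The same blocked test of clone 2 against the others called 1376 genes (11.5%), and of clone 4 against the others 0, so a count of this size is not particular to clone 1.

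The blocked count leaned on single libraries. It was 27 without the Wash library of clone 1 and 3457 with its untreated library left out, and 0 without the Dox library of clone 1, the Dox or Wash library of clone 2, or the Wash or untreated library of clone 4. It was 1 without the Dox library of clone 4. Scaling by library size alone in place of TMM gave 328 higher and 691 lower. With the Wash library of clone 1 given its own term, 17 genes were still called over untreated and Dox with the block, 4 higher (0.0333%) and 13 lower (0.108%), and 16 of these 17 were among the held genes. Without the block that number was 0 in edgeR and limma voom and 110 in DESeq2, with 1121 genes at an unadjusted p under 0.05 in edgeR. With 1 library per clone and condition, the p-values without the block measure spread between libraries of 1 line, that between clones 2 and 4 included. Those with the block measure how unevenly the clones' differences held across the 3 conditions, with the spread between clone means removed.

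Genes of a primary granule list formed the largest held group among the lists examined. Of 13 tested, 8 were called higher with the block (Mpo, Elane, Prtn3, Ctsg, Ms4a3, Prss57, Cebpe and Nkg7), against 2.19% of all genes, and 0 were lower. Without the block, 0 of the 13 were called. The list also holds the transcription factor Cebpe and the membrane protein Ms4a3, so it is wider than granule contents. Its summed level was 4158, 3492 and 6572 CPM in clone 1, 4177, 3558 and 4323 in clone 2 and 3382, 3262 and 3424 in clone 4. By this sum clone 1 was above both other clones only in Wash. The list's median log2 difference was 0.56 untreated, 1.05 in Dox and 2.02 in Wash, against medians for all genes of 0.0146, 0.0148 and -0.0106. Mpo, the peroxidase that defines these granules (chromosome 11, 87793784 to 87804412 in GRCm38.p6), was at 82.7, 27.7 and 1720.4 CPM in clone 1, at 50.5, 1.06 and 65.1 in clone 2 and at 80, 0.872 and 50 in clone 4. Its Wash library was far above all others, its Dox level stayed closer to untreated than in the other clones, and its untreated level of 82.7 CPM barely cleared the 80 CPM of clone 4 (log2 difference 3.74, SE 0.80, adjusted p = 0.0486).

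Elane, which encodes neutrophil elastase, was at 66.4, 19 and 203 CPM in clone 1, at 30.4, 4.5 and 19.6 in clone 2 and at 28.7, 6.4 and 38.4 in clone 4. Every clone 1 library was above the library of either other clone in the same condition (log2 difference 2.01, SE 0.30, adjusted p = 0.0408, and adjusted p = 0.0610 without the block). Ctsg, the gene of cathepsin G, was at 274, 103 and 952 CPM in clone 1, at 138, 25.9 and 119 in clone 2 and at 120.1, 45.5 and 110.2 in clone 4. Prtn3, the gene of proteinase 3, was at 141, 74.2 and 300.1 CPM in clone 1, at 97.7, 43.9 and 77.6 in clone 2 and at 76.2, 46.9 and 70.2 in clone 4. For both, clone 1 was highest in each condition, and their Wash libraries departed further still, with Wash terms of 1.74 and 1.32 on the log2 scale that were called with the block. Ms4a3, a membrane protein of granulocyte and monocyte precursors, was at 3.12, 16.5 and 23.9 CPM in clone 1, at 0.504, 1.98 and 1.1 in clone 2 and at 0.865, 4.94 and 1.84 in clone 4. It was 1 of the 4 genes called higher over untreated and Dox with the Wash library set aside, so it was called without the Wash library too. Prss57, a granule serine protease, was at 87.9, 289.6 and 206 CPM in clone 1, at 69.9, 66.5 and 57.4 in clone 2 and at 40.3, 87.1 and 35.4 in clone 4 (log2 difference 1.64, SE 0.28, adjusted p = 0.0408). Its separation was wide in Dox and Wash and small in untreated. Of 23 tested markers of mature neutrophils, 0 were called between the clones in either direction, and their median log2 difference was 0.71 untreated, 0.17 in Dox and 0.07 in Wash. Above both other clones in all conditions lay 8 of the 23, and below both 1, against 13.3% and 11.8% of all genes.

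**Figure D1:**
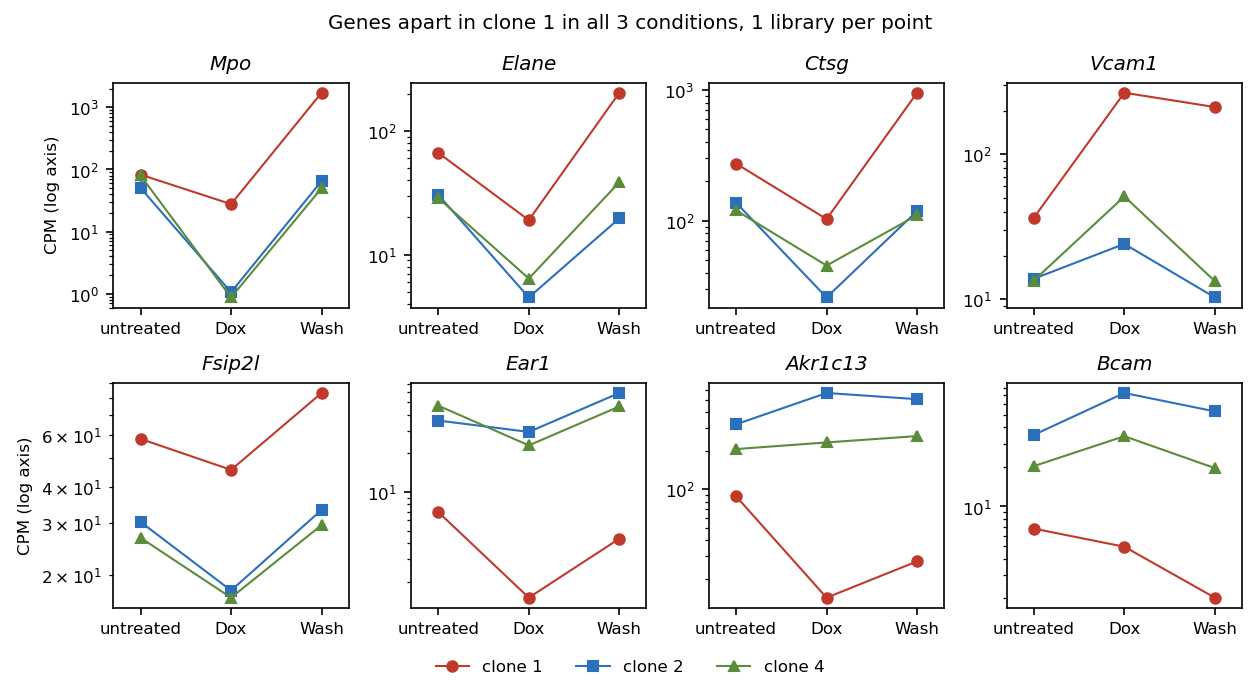
CPM on a log axis for 8 genes in untreated, Dox and Wash, with 1 point per library and 1 line per clone. Clone 1 lies above both other clones for Mpo, Elane, Ctsg, Vcam1 and Fsip2l, and below both for Ear1, Akr1c13 and Bcam, in each condition.

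Lists of regulators and receptors each held few called genes. With the block, 2 of 25 myeloid transcription factors (Cebpa and Cebpe) and 2 of 15 stem, progenitor and leukaemia genes (Kit and Prom1) were higher and 0 of either list lower. Of 31 cytokine receptors, 2 were higher (Kit and Tnfrsf1a) and 1 lower (Epor), against 2.19% and 1.28% of all genes, and 0 in these 3 lists were called without the block. Cebpa, the transcription factor that commits precursors to the granulocyte and monocyte lineage, was at 43.1, 93.3 and 109 CPM in clone 1, at 26.2, 15.2 and 17.6 in clone 2 and at 22.6, 32.8 and 22.3 in clone 4. Its excess was small in untreated and largest in Dox and Wash (log2 difference 1.82, SE 0.30, adjusted p = 0.0408). Cebpe, which acts later in granule formation, had a difference of 0.67 with the block. Kit, the stem cell factor receptor, was at 94.3, 281 and 121 CPM in clone 1, at 67.4, 144 and 48.8 in clone 2 and at 60.4, 221 and 57.4 in clone 4. The groups did not overlap in any condition, at a difference of 0.80. Prom1, which encodes the progenitor surface protein CD133, was at 3.3, 18.5 and 28.4 CPM in clone 1, at 1.76, 1.98 and 1.23 in clone 2 and at 0.494, 3.2 and 0.489 in clone 4 (log2 difference 3.30, SE 0.58, adjusted p = 0.0408). Its untreated level in clone 1 was low, and the separation came mainly from Dox and Wash. Among other progenitor genes, Hmga2, a chromatin protein, differed by 2.46, and Lmo2 and Myb were called in the Wash term and not over all conditions, at 1.70 and 1.15.

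Vcam1, an adhesion molecule that binds integrins on blood cells, was at 36.5, 266 and 212 CPM in clone 1, at 13.9, 24.1 and 10.3 in clone 2 and at 13.5, 51.2 and 13.3 in clone 4. Its excess was seen in every condition and was largest after washout (log2 difference 2.96, SE 0.42, adjusted p = 0.0408, and adjusted p = 0.0610 without the block). Cxcr4, the receptor for the marrow chemokine Cxcl12, was at 122, 177 and 166 CPM in clone 1, at 57.2, 46.8 and 41.9 in clone 2 and at 112, 140.3 and 126 in clone 4. Clone 1 cleared clone 4 narrowly and clone 2 widely, with a difference of 0.98. The inhibitory lectin gene Clec12a was at 7.89, 217 and 17.8 CPM in clone 1, at 5.79, 40.6 and 3.43 in clone 2 and at 2.47, 56.3 and 3.06 in clone 4, and the sialic acid lectin gene Siglecf, a marker of eosinophils, was at 1.28, 48.9 and 4.14 CPM in clone 1, at 0.378, 15.2 and 0.368 in clone 2 and at 0.494, 18.4 and 0.979 in clone 4. Both were higher in Dox than in untreated in all 3 clones and stood highest there in clone 1, at differences of 1.94 and 1.87. Tlr7, Tnfrsf1a and Ltb4r1, receptors for RNA, TNF and leukotriene B4, were held higher by 1.62, 0.87 and 0.85. Tcf7, a T cell and stem cell transcription factor, was higher by 1.60, the only called gene of the 5 tested lymphoid markers over all 3 conditions, while Cd3g and Prf1 of the same list were lower in the Wash term.

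Some cell division genes were held higher in clone 1. Of 42 cell cycle and DNA replication genes, 6 were called higher with the block against 2.19% of all genes, and 0 lower. Above both other clones in all conditions lay 26 of them, against 13.3% of all genes. Without the block, 0 of the 42 were called. The list's median log2 difference was 0.24 untreated, 0.74 in Dox and 1.14 in Wash. Rrm2 and Rrm1, the subunits of ribonucleotide reductase that supplies DNA building blocks, differed by 1.36 and 1.12. Rrm2 was at 79.8, 122 and 178 CPM in clone 1, at 45.6, 36.1 and 37 in clone 2 and at 55, 65.7 and 53.5 in clone 4. Aurkb, Bub1 and Cenpe, which act at the mitotic spindle and kinetochore, differed by 0.88, 0.82 and 0.73. Cdc6, a replication licensing factor, was called at 0.95 but was not held, since untreated clone 1 at 47.7 CPM was below the 49.5 CPM of clone 4. Cdkn2a, the locus of the p16 and p19Arf inhibitors, was the 1 called over all conditions among 21 cell cycle inhibitors, higher in clone 1, and was at 133, 76.5 and 67.5 CPM in clone 1, at 73.4, 29.9 and 25.2 in clone 2 and at 6.18, 13.8 and 3.06 in clone 4. Clones 2 and 4 differed from each other at this gene by more than clone 1 differed from clone 2 in untreated.

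Several metabolic and protein-handling genes were also held higher. Asns and Mthfd2, amino acid and folate enzymes under ATF4 control, differed by 1.24 and 1.01. Calr, a chaperone of the endoplasmic reticulum, was at 1443, 1348 and 2469 CPM in clone 1, at 877, 762 and 751 in clone 2 and at 923, 829 and 939.7 in clone 4, above both other clones throughout (log2 difference 1.02, SE 0.20, adjusted p = 0.0448). Tfrc, the transferrin receptor, and Slc40a1, the iron exporter ferroportin, were both higher, by 1.12 and 2.38. Slc40a1 was at 7.89, 156 and 69.3 CPM in clone 1, at 2.64, 54.1 and 2.7 in clone 2 and at 4.45, 59.1 and 5.75 in clone 4, and its Wash level did not return to that of untreated. Apaf1, the core of the apoptosome, differed by 0.95, Gpx1, a glutathione peroxidase, by 1.01, and Ndufa4, a respiratory chain subunit coded in the nucleus, by 1.15. Of 40 nuclear oxidative phosphorylation genes, Ndufa4 was the 1 called with the block (2.19% of all genes higher).

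Fsip2l was the gene called higher without the block (Entrez 209005, chromosome X, 48841458 to 48877815). It was at 58.2, 45.6 and 83.3 CPM in clone 1, at 30.4, 17.7 and 33.3 in clone 2 and at 26.8, 16.8 and 29.6 in clone 4, with clone 1 highest in each condition and a narrow spread between the other clones (log2 difference 1.28, SE 0.14, adjusted p = 0.0341, all without the block). The untreated, Dox and Wash libraries gave nearly the same excess, and the Wash term was 0.19 on the log2 scale and not called. Sec16b, a protein of vesicle exit sites on the endoplasmic reticulum, was called over untreated and Dox and was at 111, 236 and 353 CPM in clone 1, at 52.6, 90.8 and 45.8 in clone 2 and at 61.3, 118 and 66.1 in clone 4. It was held, and its Wash library departed further, with a called Wash term of 1.59.

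Ear1, Gbp9 and Nhs were among the 4 genes called lower without the block. Ear1, an eosinophil ribonuclease (Entrez 13586, chromosome 14, 43818765 to 43819639), was at 6.97, 1.5 and 4.33 CPM in clone 1, at 36, 29.4 and 59.1 in clone 2 and at 47.1, 23.1 and 46.4 in clone 4. Clone 1 was below both other clones in every condition by a wide gap (log2 difference -3.37, SE 0.32, adjusted p = 0.0256, all without the block). Gbp9, a guanylate-binding protein (chromosome 5, 105076464 to 105110357), was at 0.367, 1.85 and 0.368 CPM in clone 1, at 1.89, 11.9 and 2.08 in clone 2 and at 2.22, 13.1 and 2.81 in clone 4 (log2 difference -2.67, SE 0.32, adjusted p = 0.0403, all without the block). It was higher in Dox than in untreated in all clones, at a lower level in clone 1 throughout. Nhs (chromosome X, 161833290 to 162159441) was at 0.183, 0 and 0.092 CPM in clone 1, at 5.67, 0.265 and 4.9 in clone 2 and at 4.45, 0.0969 and 6.12 in clone 4, near the counting limit in all of clone 1 and in Dox of the other clones (log2 difference -5.17, SE 0.57, adjusted p = 0.0341, all without the block). Ear1 and Gbp9 belong to families of near-identical copies, so how reads were shared among copies is uncertain.

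Among lineage markers outside the granule list, single genes were called with the block, which called 2.19% of all genes higher and 1.28% lower. Without it, Ear1 was the 1 called in these lists. Of 10 eosinophil markers, Siglecf was higher and Ear1 lower, and of 12 mast cell and basophil markers Kit was higher and Prss34, a basophil protease, lower, at -3.26. Epx, the eosinophil peroxidase, was at 10912, 4784 and 10552 CPM in clone 1, at 7881, 2889.5 and 7893 in clone 2 and at 7434, 2654 and 7324 in clone 4, and its difference was not called. The summed level of the 12 mast cell and basophil markers was 2881, 730.3 and 1090.0 CPM in clone 1 and 1491 to 4017 CPM in the other libraries, with 2 of 12 called. Of 7 erythroid markers, Tfrc was higher, and Epor, the erythropoietin receptor, and Hba-a2, an alpha globin, were lower, at -1.39 and -3.14, the globin at under 5 CPM in all libraries and with a near-identical neighbour, Hba-a1. Of 10 monocyte and macrophage markers, Vcam1 was higher.

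Other genes held lower were enzymes, RNA-binding and membrane proteins. Akr1c13, an aldo-keto reductase, was at 88.2, 14.3 and 27.4 CPM in clone 1, at 321, 564 and 505 in clone 2 and at 206, 232 and 260.1 in clone 4. The clone 1 levels did not reach the lowest value of the other clones in any condition (log2 difference -3.14, SE 0.58, adjusted p = 0.0417). Bcam, a laminin receptor, was at 6.79, 4.94 and 2.02 CPM in clone 1, at 35, 72.9 and 52.8 in clone 2 and at 20.3, 34.2 and 19.6 in clone 4 (log2 difference -3.06, SE 0.36, adjusted p = 0.0381). Cirbp, the cold-inducible RNA-binding protein, was at 42.7, 50.7 and 22.4 CPM in clone 1, at 111, 163 and 129 in clone 2 and at 97.2, 105 and 105 in clone 4, and Septin8, a filament-forming GTPase, was at 3.85, 3.35 and 17.5 CPM in clone 1, at 24.6, 16.7 and 30.9 in clone 2 and at 25, 14.7 and 26.6 in clone 4. Both were called over untreated and Dox with the Wash library set aside, as were Ear1, Gbp9, Bcam and Prnp. Prnp, the prion protein gene, was at 19.4, 7.23 and 6.9 CPM in clone 1, at 83.5, 40.1 and 120.0 in clone 2 and at 24.7, 15.2 and 43.7 in clone 4. Its levels in clone 4 lay close to those of clone 1 in untreated, so its separation there was small. Angpt1, a ligand of the Tie2 receptor, differed by -2.89, Eno2, an enolase, by -2.51, and Atp13a2, a lysosomal ATPase, by -1.69. Socs2, an inhibitor of cytokine signalling, differed by -0.67, and Oasl2 and Ifi27l2a, interferon-induced genes, by -2.01 and -1.69. Of 24 interferon response genes, Oasl2 was the 1 called over all conditions with the block (1.28% of all genes lower).

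Chromosomes gave no large block of shifted genes in the nuclear genome. The median log2 difference, clone 1 against the others without the block, was -0.10 on chromosome 7 (954 genes), 0.10 on chromosome 14 (379 genes) and 0.124 on chromosome 18 (268 genes). On chromosome 18, 22% of genes were separated higher and 5.60% lower, against 13.3% and 11.8% of all genes. Chromosome X (369 genes) had a median of 0.099, just under the limit of 0.1 used to name a chromosome. There 20.3% of genes were separated higher and 10.8% lower. Without clone 2, the medians of chromosomes 7, 14 and 18 were -0.06, 0.054 and 0.093, all short of that limit. With scaling by library size alone, the medians of every autosome and of chromosome X were negative in untreated and positive in Dox and Wash. No run of 4 or more neighbouring tested genes was held in 1 direction. Counting genes that only lay apart in all conditions gave 16 such runs. One on chromosome 5 (104570575 to 105139586) held Zfp33b, Abcg3, Gbp9 and Gbp4, all lower in clone 1 at a median of -2.33, with 3 of the 4 called with the block. Another on chromosome 6 (3962589 to 4643355) held Tfpi2, Gng11, Bet1 and Casd1, all higher at a median of 0.89, with 3 of the 4 called.

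Genes of the mitochondrial genome lay far lower in clone 1, but not in every library and without a call. The 15 tested had a median log2 difference of -1.73 over all conditions without the block and of -0.33 untreated, -2.34 in Dox and -2.79 in Wash by condition. Of them, 7 were below both other clones throughout, against 11.8% of all genes, and 0 were called with the block. Their summed level in Dox was 22970.0 CPM in clone 1, 203100.0 in clone 2 and 66940.0 in clone 4, so the other clones also differed widely.

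The Wash library of clone 1, sorted on the same GFPhigh gate as its untreated library, differed from it at least 2-fold in 18.4% of genes, 630 higher and 1583 lower. The corresponding share was 1.15% in clone 2 and 0.833% in clone 4. Without the block 2 genes passed the Wash-alone test, both lower (0.0167% of those tested), and 1390 had an unadjusted p under 0.05. That count was 0 when any 1 library or clone was left out and 161 in DESeq2. With the block 207 were higher (1.72%) and 385 lower (3.21%), of which 203 and 383 were not called over untreated and Dox. Of the 398 held genes, 19 were also called for the Wash term, 18 of them in the same direction. Scaling by library size alone gave 198 higher and 192 lower and moved the median Wash term of all genes by 0.36. The blocked count was 2 without the Wash library of clone 4, 3 without that of clone 2, 20 without the untreated library of clone 4, 88 without the Dox library of clone 4 and 141 without the untreated library of clone 2. It was 1757 without the Dox library of clone 1 and 1917 without that of clone 2. Among the 586 genes, 164 of the higher and 335 of the lower were at the extreme of all 9 libraries, and their adjusted p without the block lay between 0.0356 and 0.717.

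Antigen presentation genes were among those lower in the clone 1 Wash library. MHC class I molecules carry peptides to the cell surface for T cells and need beta-2 microglobulin and the peptide transporter. Of 19 genes of this pathway, 9 were lower in the Wash term with the block (H2-K1, H2-D1, H2-Q4, H2-Q6, H2-Q7, H2-T23, B2m, Tap1 and Tapbp), against 3.21% of all genes, and 0 were higher. Without the block, H2-Q4 was the 1 called. The list's median log2 difference was -0.10 untreated, 0.07 in Dox and -1.02 in Wash. H2-Q4 (chromosome 17, 35379617 to 35384674) was at 82.4, 121 and 11 CPM in clone 1, at 94.7, 139 and 108 in clone 2 and at 90.5, 130.4 and 92.5 in clone 4. Its 8 other libraries lay between 82.4 and 139 CPM, so the Wash library of clone 1 alone was low (log2 term -3.03, SE 0.26, adjusted p = 0.0356 without the block).

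H2-K1, a classical class I heavy chain, was at 1424, 2732 and 386 CPM in clone 1, at 1796, 2908 and 1971 in clone 2 and at 1613, 2339.5 and 1656 in clone 4, and B2m, the shared light chain, was at 922, 2134 and 304 CPM in clone 1, at 1097, 1677 and 1301 in clone 2 and at 905, 1588 and 975 in clone 4. For both, untreated and Dox of clone 1 were near the other clones and Wash was the lowest of the 9, with Wash terms of -2.13 and -2.04. Tap1, a subunit of the peptide transporter, was lower by a smaller amount, at -0.96. The H2-Q genes are close copies of one another, so the split of reads among H2-Q4, H2-Q6 and H2-Q7 is uncertain. Of 5 tested genes of an MHC class II and dendritic cell list, 3 were lower in the Wash term with the block against 3.21% of all genes, and 0 without it. These were H2-Ab1, H2-DMb1 and H2-Oa, at -3.65, -2.06 and -2.10, while H2-DMa (-1.67) and the receptor kinase Flt3 (1.48) were not called. H2-Ab1 was at 164, 26 and 7.55 CPM in clone 1, at 178, 115 and 185 in clone 2 and at 101, 55.6 and 103 in clone 4, already low in the Dox library of clone 1. Irf7 and Xaf1 were the 2 of 24 interferon response genes called lower in the Wash term with the block, at -2.61 and -2.69 (3.21% of all genes).

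Bmf, a BH3-only protein that promotes cell death, was the other gene called without the block (chromosome 2, 118528757 to 118549686). It was at 25.7, 5.91 and 2.39 CPM in clone 1, at 47.9, 10.5 and 56.4 in clone 2 and at 46.1, 8.72 and 49.9 in clone 4. It was low in Dox and back up in Wash in clones 2 and 4, and in clone 1 it was at its lowest value in Wash (log2 term -3.68, SE 0.35, adjusted p = 0.0396 without the block). Of 27 apoptosis regulators, 5 were lower and 1 higher in the Wash term with the block, against 3.21% and 1.72% of all genes, and Bmf was the 1 called without it. Bbc3, another BH3-only gene and a p53 target, differed by -1.90, Fas, a death receptor, by -1.74, and Birc2, an inhibitor of apoptosis, by -0.95, whereas Apaf1 was higher by 0.87. Trp53, although the line is labelled p53-/-, still had reads and was at 94.5, 27.2 and 33.5 CPM in clone 1, at 79.3, 43.1 and 76.5 in clone 2 and at 61.1, 39.3 and 60.7 in clone 4, and its Wash term was not called.

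**Figure D2:**
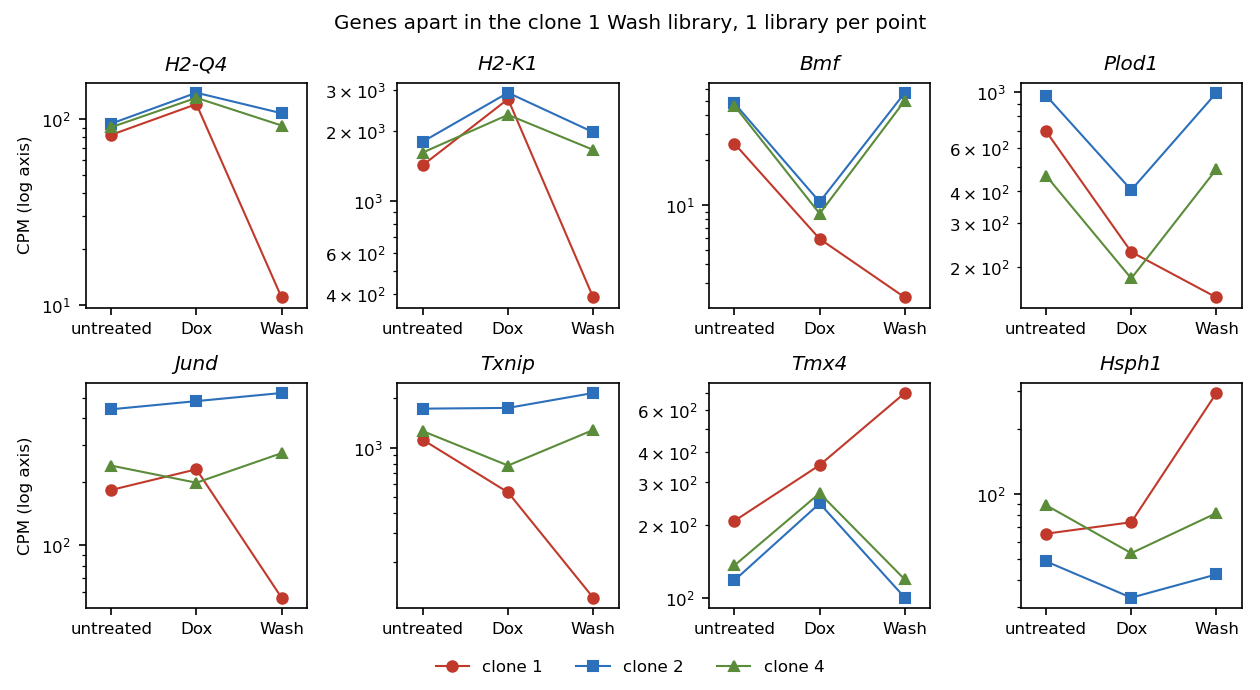
CPM on a log axis for 8 genes in untreated, Dox and Wash, with 1 point per library and 1 line per clone. In Wash, clone 1 lies below both other clones for H2-Q4, H2-K1, Bmf, Plod1, Jund and Txnip and above both for Tmx4 and Hsph1, while clones 2 and 4 return to near their untreated level.

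Immediate early genes, which cells switch on within minutes of a growth or stress signal, were among those lower in the clone 1 Wash library. Of 23 tested, 8 were lower with the block (Fos, Fosl2, Jun, Jund, Ier2, Ier5, Btg2 and Klf6), against 3.21% of all genes, and 0 were called without it. Their list median was -0.36 untreated, -0.63 in Dox and -2.33 in Wash. Jund, an AP-1 subunit, was at 183, 229 and 56.4 CPM in clone 1, at 442, 483 and 528 in clone 2 and at 239, 198 and 274 in clone 4 (log2 term -2.13, SE 0.26, adjusted p = 0.0118). Jun, its close relative, was at 279, 276 and 55.8 CPM in clone 1, at 596, 503 and 593 in clone 2 and at 329.6, 141 and 349.6 in clone 4. Clone 1 in Wash lay below every other library for both. Fos, their partner, had a Wash term of -3.02, in which the Wash library of clone 4, at 232 CPM, stood above the other 8.

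Cell cycle inhibitors were also among those lower in this library. Of 21 tested, 7 were lower in the Wash term with the block, against 3.21% of all genes, 0 were higher and 0 were called without the block. Cdkn1b, which encodes the p27 inhibitor of cyclin-dependent kinases, was at 75.2, 61.8 and 27.2 CPM in clone 1, at 116, 117 and 129 in clone 2 and at 87.5, 59.5 and 93.8 in clone 4. Rb1, the retinoblastoma protein that holds cells before S phase, was at 95, 102 and 39.3 CPM in clone 1, at 107, 155 and 129 in clone 2 and at 84.6, 121 and 90.5 in clone 4. Each lay within the range of the other clones in untreated or Dox and was the lowest of the 9 in Wash, at Wash terms of -1.58 and -1.25. Cdkn2d, Btg1, Btg2, Tob1 and Gadd45g, which also restrain division, differed by -1.36, -1.74, -1.62, -1.12 and -2.59. Txnip, which binds thioredoxin and limits glucose uptake, was at 1116, 534 and 122 CPM in clone 1, at 1729, 1747 and 2154 in clone 2 and at 1261, 778 and 1281 in clone 4 (log2 term -3.01, SE 0.40, adjusted p = 0.0136).

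Hypoxia response genes were among those lower in the clone 1 Wash library. The hypoxia-inducible factors switch such genes on when oxygen is short, among them collagen hydroxylases, glycolytic enzymes and Vegfa. Of 33 tested, 8 were lower in the Wash term with the block (P4ha2, Ndrg1, Ankrd37, Selenbp1, Ddit4, Plod1, Vegfa and Bnip3l), against 3.21% of all genes, 0 were higher, and 0 were called without the block. None of the 33 was held over all conditions. Another 5 (Pdk1, Hk2, Ak4, Stc2 and Mif) were called higher for the untreated library alone with the block, against 0.516% of all genes. Their difference from the other clones was thus higher in untreated than in Dox and Wash. Pdk1, a kinase that limits pyruvate entry into mitochondria, was at 189, 20.7 and 33.1 CPM in clone 1, at 209.9, 111 and 237 in clone 2 and at 42, 25.4 and 41.4 in clone 4. Its clone 1 levels in Dox and Wash were close to those of clone 4 and far below those of clone 2. The list's median log2 difference was 0.38 untreated, -0.72 in Dox and -1.64 in Wash. For 15 of the 33 the clone 1 Wash library was the lowest of 9, against 23.1% of all genes.

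The stretches upstream of 3 of these genes are shown because the binding motif of the hypoxia-inducible factors can be read in them. Each is the 250 bases before the annotated start of the gene on its own strand, 5′ to 3′, from RefSeq (GRCm38.p6), and capitals mark the core motifs of the hypoxia-inducible factors, ACGTG or GCGTG, on either strand.
P4ha2 (chr11:54100674-54100923, plus strand): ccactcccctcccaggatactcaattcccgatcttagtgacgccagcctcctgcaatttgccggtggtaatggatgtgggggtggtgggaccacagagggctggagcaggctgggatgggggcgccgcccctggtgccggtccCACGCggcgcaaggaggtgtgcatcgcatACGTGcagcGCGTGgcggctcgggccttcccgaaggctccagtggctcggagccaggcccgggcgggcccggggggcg
Ddit4 (chr10:59951771-59952020, minus strand): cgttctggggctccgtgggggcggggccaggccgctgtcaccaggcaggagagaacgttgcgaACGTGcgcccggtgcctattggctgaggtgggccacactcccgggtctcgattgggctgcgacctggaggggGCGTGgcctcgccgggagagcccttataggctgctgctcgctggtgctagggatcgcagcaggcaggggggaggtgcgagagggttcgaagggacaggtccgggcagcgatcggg
Plod1 (chr4:147936777-147937026, minus strand): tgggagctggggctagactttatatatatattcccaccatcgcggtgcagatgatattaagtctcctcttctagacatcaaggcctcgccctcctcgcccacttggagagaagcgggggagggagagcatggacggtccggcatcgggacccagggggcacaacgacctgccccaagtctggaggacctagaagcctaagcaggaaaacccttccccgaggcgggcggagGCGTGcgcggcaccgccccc
The stretches hold 3, 2 and 1 sites. Of the 8 called genes 6 matched a RefSeq window, and each of these 6 had a motif in at least 1 window. Over all 32817 windows of the same length 38.6% had one, over the 11893 windows of tested genes 56.0% and over the 38 windows of tested hypoxia genes 81.6%. The 7 windows of the called genes gave 85.7%, close to the share of the list as a whole. A match describes letters and is not evidence of binding.

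P4ha2, a prolyl hydroxylase of collagen, was at 73.2, 2.38 and 0.828 CPM in clone 1, at 112, 33.3 and 137 in clone 2 and at 39.3, 8.33 and 44.9 in clone 4. It was lower in Dox than in untreated in all clones, and in Wash it was back in clones 2 and 4 and under 1 CPM in clone 1 (log2 term -5.72, SE 1.19, adjusted p = 0.0384). Plod1, a lysyl hydroxylase of collagen, was at 697, 229 and 150.4 CPM in clone 1, at 970.3, 406 and 996 in clone 2 and at 463, 179 and 492 in clone 4 (log2 term -2.13, SE 0.23, adjusted p = 0.0114). Ddit4, an inhibitor of mTORC1, was at 127, 93.1 and 20.6 CPM in clone 1, at 117, 100.2 and 146 in clone 2 and at 115, 43.6 and 112 in clone 4. Clone 1 was near the other clones in untreated and near clone 2 in Dox, while the Dox library of clone 4 was low at 43.6 CPM. The Wash library of clone 1 was lower than every other library (log2 term -2.92, SE 0.41, adjusted p = 0.0147). Ndrg1, a stress-induced gene, and Vegfa, the vascular growth factor, had Wash terms of -4.80 and -1.71. For P4ha2, Ndrg1 and Plod1 the untreated and Wash levels of clones 2 and 4 also differed from each other, with clone 2 higher. Of 27 glycolysis genes, Aldoa and Aldoc, aldolases, were lower in the Wash term, at -2.04 and -4.71 (3.21% of all genes), and 0 were higher.

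Of 31 cytokine receptors, 3 were lower in the Wash term with the block (Csf1r, Il9r and Il2rg), against 3.21% of all genes, and 0 were higher. Ptgds, a prostaglandin D synthase, was at 1218, 15 and 7.92 CPM in clone 1, at 1159, 43.7 and 1262 in clone 2 and at 832, 62.4 and 915 in clone 4 (log2 term -6.51, SE 0.92, adjusted p = 0.0150). Il9r, the interleukin 9 receptor, was at 109, 0.441 and 16.9 CPM in clone 1, at 203, 0.926 and 227 in clone 2 and at 155, 0.485 and 152 in clone 4 (log2 term -2.77, SE 0.23, adjusted p = 0.00417). Both were low in Dox in every clone, were back at their untreated level in Wash in clones 2 and 4, and were at 7.92 and 16.9 CPM in the clone 1 Wash library. Csf1r, the M-CSF receptor and a PU.1 target, was at 33.9, 6.79 and 0.552 CPM in clone 1, at 38.7, 20 and 62 in clone 2 and at 16.9, 13.7 and 13.8 in clone 4. It was the 1 gene of 22 PU.1 targets lower in the Wash term with the block (3.21% of all genes), at -5.45, and clones 2 and 4 differed from each other here as well. Cish, a feedback inhibitor of cytokine signalling, and Il2rg, the common gamma chain of several cytokine receptors, had Wash terms of -2.39 and -0.96. Of 17 histone genes, H2bc4 and H1f0 were lower with the block (3.21% of all genes), at -3.87 and -1.09, with a list median of 0.63 untreated, -1.51 in Dox and -2.28 in Wash.

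Ribosome biogenesis and chaperone genes were among those higher in the clone 1 Wash library. Of 31 ribosome biogenesis genes, which build the ribosome in the nucleolus, 5 were higher in the Wash term with the block (Utp20, Utp4, Mybbp1a, Polr1a and Rrp12), against 1.72% of all genes, 0 were lower, and 0 were called without the block. The clone 1 Wash library was the highest of 9 for 28 of the 31, against 24.1% of all genes. Utp20, part of the complex that processes the small subunit RNA, was at 50.3, 58.7 and 188 CPM in clone 1, at 29.6, 20.4 and 25.4 in clone 2 and at 94.3, 66 and 93.7 in clone 4, and Mybbp1a was at 338, 262 and 716 CPM in clone 1, at 234, 148 and 213 in clone 2 and at 432, 356 and 424 in clone 4. Clone 2 was lowest in all conditions at both, so the excess of clone 1 in Wash was smaller over clone 4 than over clone 2. Of 47 cytoplasmic ribosomal protein genes, Rpl14 and Rpl34 were lower in the Wash term (3.21% of all genes), at -1.10 and -1.30, and 0 were higher.

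Of 22 chaperone and unfolded protein genes, 3 were higher in the Wash term with the block (Sdf2l1, Hyou1 and Hsph1), against 1.72% of all genes, 0 were lower, and 0 were called without the block. Hsph1, a cytosolic heat shock protein, was at 65.5, 74 and 294 CPM in clone 1, at 48.7, 33.1 and 42.4 in clone 2 and at 88.8, 53.2 and 81.6 in clone 4 (log2 term 1.89, SE 0.31, adjusted p = 0.0227). Hyou1, a chaperone of the endoplasmic reticulum, was at 301, 349 and 527 CPM in clone 1, at 203, 278 and 165 in clone 2 and at 202, 261 and 196 in clone 4 (log2 term 1.08, SE 0.21, adjusted p = 0.0347). Tmx4, a thioredoxin-like membrane protein, was at 208, 354 and 702 CPM in clone 1, at 118, 246 and 100.4 in clone 2 and at 136, 271 and 119 in clone 4, with the Wash library of clone 1 above all others and the other clones back at their untreated level (log2 term 2.10, SE 0.20, adjusted p = 0.00741). Slc7a11, the cystine transporter, and Mcm2, a subunit of the replicative helicase, were higher by 2.82 and 1.31. Slc7a11 was at 9.91, 28.9 and 30.8 CPM in clone 1, at 5.29, 58.6 and 4.04 in clone 2 and at 5.56, 41.8 and 5.38 in clone 4, so its Wash level in clone 1 was like that of Dox.

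**Figure D3:**
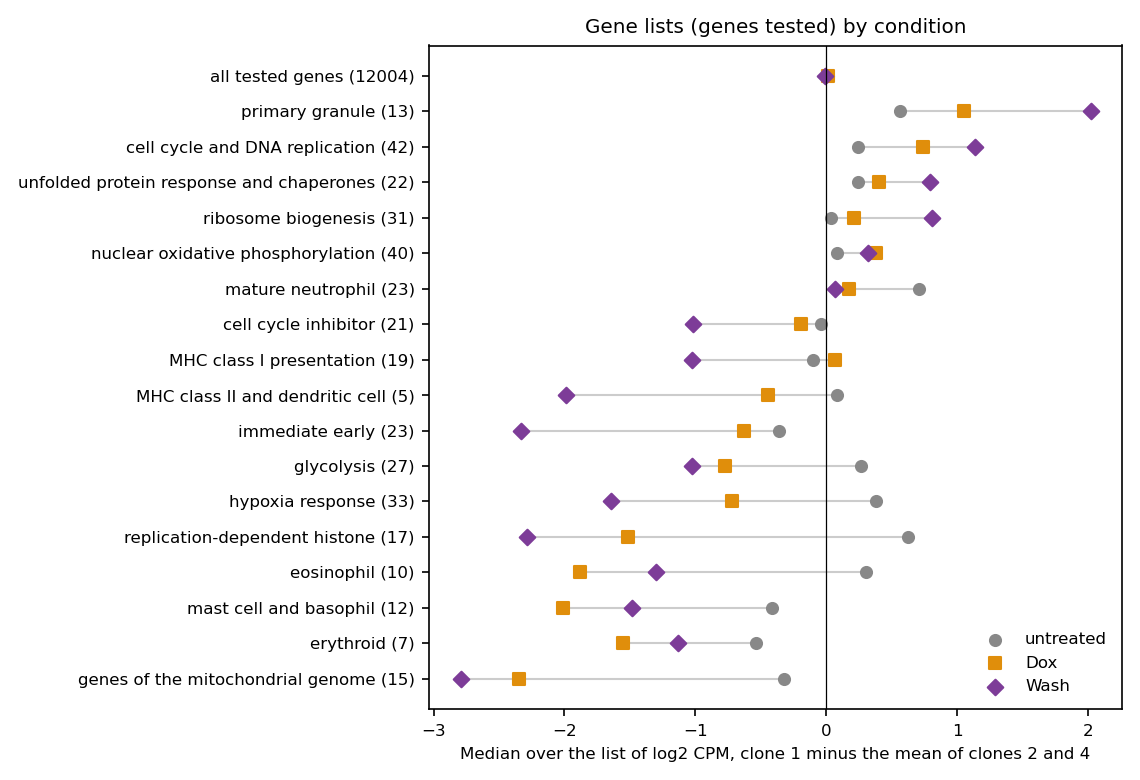
Median over each gene list of the log2 CPM difference, clone 1 minus the mean of clones 2 and 4, with 1 point per condition and the number of genes tested in brackets. The primary granule list lies above 0 in each condition, reaching 2.02 in Wash, and the hypoxia list runs from 0.38 in untreated to -1.64 in Wash.

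After washout, many genes of clone 1 had not returned from their Dox level. Genes were taken that differed at least 2-fold between Dox and untreated in both clones 2 and 4, which gave 391 higher and 248 lower in Dox. In clone 1, 381 and 247 of them moved the same way in Dox. After washout 70 of the 391 (17.9%) and 103 of the 248 (41.5%) were nearer to the Dox than to the untreated level in clone 1. The same counts were 3 (0.767%) and 1 (0.403%) in clone 2 and 2 (0.512%) and 0 in clone 4. These genes were chosen on clones 2 and 4, so the counts of those clones include some selection and the clone 1 counts do not, and they are given without a test. The clone 1 counts include genes that lay beyond their Dox level in Wash, such as P4ha2 and Ptgds. Over all tested genes, Wash of clone 1 lay at least 2-fold above untreated for 630 and below for 1583. This lean toward lower was not separated from the counts.

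For the genes lower in Dox, the clone 1 median log2 change from untreated was -1.78 in Dox and -0.78 in Wash, while the Wash medians of clones 2 and 4 were 0.06 and -0.02. For the genes higher in Dox it was 1.44 in Dox and 0.20 in Wash. Spi1 itself was not among those held up, at 52 CPM in the clone 1 Wash library against 48.1 CPM untreated. Most Wash-alone genes were outside this doxycycline set. Of the 383 lower ones, 66 were in it, 266 had moved the same way in the Dox library of clone 1, and 348 lay beyond that Dox level in Wash. Of the 203 higher ones, 32 were in it, 158 had moved the same way, and 172 lay beyond the Dox level.

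**Figure D4:**
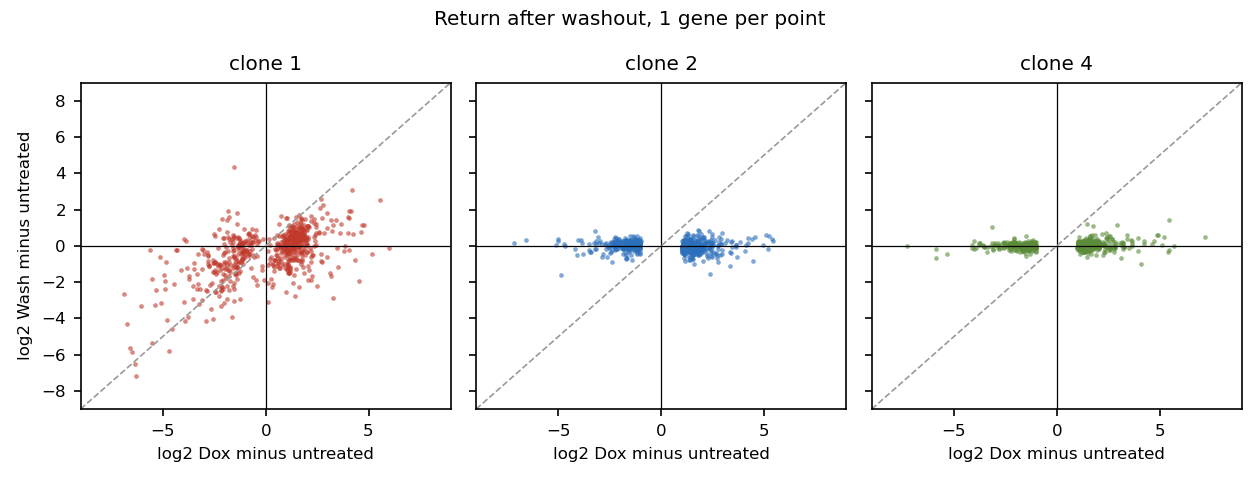
For each clone, the log2 change from untreated in Wash (vertical) against that in Dox (horizontal), 1 point per gene, for the 639 genes that differed at least 2-fold in both clones 2 and 4. The dashed line marks equal change: points of clones 2 and 4 lie along 0 in Wash, and many points of clone 1 lie toward the line.

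Few genes were near 0 in the clone 1 Wash library and well expressed elsewhere. Requiring 5 CPM or more in 8 libraries and at most 0.5 CPM in the clone 1 Wash library left 1 entry, which has no symbol. A limit of 1 CPM added Ankrd33b, H2-Q6, Csf1r, Relb and Fcgrt. Relb, an NF-kB subunit, was at 7.34, 6.97 and 0.828 CPM in clone 1, at 8.44, 11.4 and 12.7 in clone 2 and at 6.55, 6.59 and 10 in clone 4. No gene switched on or off in all 3 clone 1 libraries at either limit.

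The other 2 libraries of clone 1 were tested in the same way. For the untreated library alone, without the block, Scd1 was called higher (0.00833% of those tested) and Mpo lower (0.00833%). Scd1, a desaturase of fatty acid synthesis, was at 232, 4.85 and 4.51 CPM in clone 1, at 161, 113 and 145 in clone 2 and at 154, 180.2 and 147 in clone 4 (log2 term 5.52, SE 0.37, adjusted p = 0.00397). It was close to the other clones in untreated and nearly gone in Dox and Wash, so the low libraries were the other 2 of clone 1. Mpo had an untreated term of -4.54, which sets its untreated level, near the other clones, against its high levels relative to them in Dox and Wash. With the block 62 genes were higher (0.516%) and 3 lower (0.025%). For the Dox library alone edgeR called 0 genes with or without the block, DESeq2 and limma voom called 0 without it, and 254 had an unadjusted p under 0.05 in edgeR without it.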

How the data were processed

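RNA from 9 cultures (QIAGEN RNeasy plus mini, Illumina libraries) was sequenced, 1 library for each of 3 clones in 3 conditions. The deposited values are whole-number counts of reads per Entrez gene entry, not normalized. Per the submitters' processing notes, the build was mm10 and the tools included limma 3.22.0 and edgeR 3.8.2, beside featureCounts and CASAVA 1.8.2. Which aligner, annotation and strand setting were used is, in the sources used here, not given, so reads of overlapping or antisense genes may not be told apart. Of 27179 entries, 25275 matched a symbol in the RefSeq table (GRCm38.p6), which gave names and coordinates, and the 1904 others stayed in the tests unnamed.

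Counts were tested with edgeR 4.0.16 (R 4.3.3): filterByExpr by condition kept 12004 entries, TMM factors scaled the libraries, and a quasi-likelihood model held condition and a clone 1 indicator, with a term for 1 clone 1 library where stated. Adjusted p-values are Benjamini-Hochberg over all entries kept, called at 0.05. SE is the log2 difference over the square root of F. Log2 CPM used a prior count of 2, and the return after washout used 0.5 CPM. The blocked fit gave each clone a mean. Same-numbered libraries are the same clone by their titles, which pair the samples. Their deviations from the condition means correlated at 0.29 to 0.68 in all 9 same-clone pairs. Pairs of different clones ran from -0.692 to 0.323, so the ranges overlap slightly. The clones' deviations cancel out within each condition, so positive values within clones bring negative ones between clones. The contrast of the ranges is therefore partly built in. No pair of libraries agreed within sampling noise. Scripts were tested on simulated counts. At a true log2 change of 1, the test of clone 1 against the others recovered 61 of 100 genes without the block and 57 with it. The test of the Wash library recovered 1 of 100 in either fit, and 35 of 100 at a log2 change of 2. A lack of calls there does not show a lack of difference. DESeq2 1.42.0, limma voom 3.58.1, other scalings and filters, and fits without each library or clone were alternatives. Genes are named by a rule, applied to the blocked fit too. Held genes and Wash-alone genes needed a mean log2 CPM of 3 or more, with up to 15 and 10 per direction. Up to 3 called genes per list in each test, and all genes called without the block, were named at any level. Some list members that were counted are named beyond that rule, chosen after their values were seen. The members, lists and tests were chosen with earlier results of these data known, and the blocked alternatives and the return after washout were added after seeing the data. The values of 1 called gene are not reported here.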

Additional observations from a re-analysis of the deposited data

Results flagged for a closer look

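Single-gene departures within clone 1 were marked where a library's term, a test of whether its difference from the other clones equals that of the other clone 1 libraries, passed the threshold without the block. H2-Q4, an MHC class I gene, had a term of -3.03 on the log2 scale in the Wash library against the untreated and Dox libraries of clone 1. Bmf, a BH3-only death gene, had a term of -3.68 in the same comparison. Mpo had a term of -4.54 in the untreated library against Dox and Wash. Scd1, a fatty acid desaturase, had a term of 5.52 in the untreated library. For Mpo and Scd1 the untreated level lay near that of the other clones, at 82.7 and 232 CPM, and the Dox and Wash levels lay apart from them.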

How the results depend on the processing

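With library size alone as scaling, the counts of genes called were 266 for clone 1 against the others (254 held), 10 over untreated and Dox, and 65 for clone 2 against the others. With the replicate block and that scaling they were 1019 (737 held) and 390 for the Wash library, and 1 chromosome, the mitochondrial, passed. With no count filter they were 441 (424 held), 3 over untreated and Dox, 19 for Wash and 11 for untreated alone, and with the block 1317 (1086 held). Keeping entries at 5 CPM in 3 libraries gave 2 (2 held), and 141 (137 held) with the block. DESeq2 gave 1385 (1208 held), 110, 161 and 66 in the order above, and with the block 2060 (1481 held) and 1161 for Wash. Limma voom gave 2 (2 held) and 0 for Wash, and with the block 1236 (1048 held). The replicate block itself moved 5 calls to 417, 5 held genes to 398, 0 to 17 over untreated and Dox, 2 to 592 for Wash and 2 to 65 for untreated alone. Raising the limit for an absent gene to 1 CPM moved 1 entry to 6. The cause of these shifts was not tested, apart from the number of genes tested in the filters.

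Leaving out 1 library or clone gave 0 to 965 genes without the block (0 to 953 held) and 0 to 3457 with it (0 to 3174 held). It gave 0 to 5 over untreated and Dox, 0 to 22 for untreated alone, 0 to 0 for Dox alone and 0 to 0 for Wash alone, 2 to 1917 for Wash with the block, and 2 to 4 chromosomes. In the tests that called it, no named gene reversed its direction under any alternative that gave it an adjusted p. Tests that did not call a gene were not checked in this way. The blocked fit was not run without clone 2 or clone 4. With the block, 70 genes named over all conditions kept their call in 599 fits and lost it in 514, and 89 named for Wash kept it in 911 and lost it in 423. The medians of the primary granule and cell cycle lists over all conditions, and of the hypoxia, MHC class I and II, immediate early, cell cycle inhibitor, histone, ribosome biogenesis and chaperone lists in the Wash term, kept their sign under all alternatives run. Their size did not: over the alternatives the hypoxia median in Wash ran from -2.30 (without Wash of clone 4) to -0.55 (without Wash of clone 2), against -1.64. The histone median ran from -3.87 (without Dox of clone 1) to -0.68 (without untreated of clone 1), against -2.46, the class II median from -2.22 to -0.65 (no filter), against -2.06, the class I median from -1.11 to -0.59 (library size alone), against -0.96, and the ribosome biogenesis median from 0.30 (without Wash of clone 2) to 1.06 (without Wash of clone 4), against 0.63. The cell cycle inhibitor median ran from -1.31 to -0.55 (library size alone), against -0.93, the chaperone median from 0.47 to 0.92 (library size alone), against 0.55, the immediate early median from -2.26 to -1.21, against -1.66, and the primary granule median over all conditions from 0.70 (without Wash of clone 1) to 1.42, against 1.18. The cell cycle median ran from 0.47 (without Wash of clone 1) to 0.97, against 0.72. With 1 library per clone and condition, no spread within a clone and condition could be measured.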
